A study of Mus musculus with 15 samples.

Results

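The genes described here are 10 that were listed for migrating neuroblasts, the young neurons that reach the olfactory bulb throughout adult life. Whether the RNA of each gene comes from neuroblasts alone was not tested. They were Dcx, Sox11, Sox4, Igfbpl1, Cd24a, Stmn2, Prokr2, Dpysl3, Ncam1 and St8sia2, taken as the probes whose gene name in the array files is a member. They had 19 of the 55681 probes, and all 10 were among the 27326 genes tested.

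RNA of whole olfactory bulbs from 15 male mice aged 6 to 8 weeks was hybridised to 1-colour Agilent arrays, 1 per mouse, on 2 slides. The study altered local signalling by corticotropin-releasing hormone through its receptor, CRHR1. An adeno-associated virus (500 nL) whose cargo needs Cre recombinase had been injected into all bulbs 2 weeks before RNA was taken. In the active CRHR1 group, 5 CRHR1-Cre mice of strain C57Bl/6 received AAV-flex-(CA)CRHR1, which codes for a constitutively active receptor in CRHR1-positive granule cells. In the knockout group, 5 CRHR1-/- mice of strain 129S4/SvJae received AAV-flex-EGFP. In the Cre GFP group, 5 CRHR1-Cre mice of strain C57Bl/6 received AAV-flex-GFP. The knockout titles name no Cre, so in both comparisons that involve the knockout, strain, loss of the receptor and Cre cannot be told apart.

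Neuroblasts are born in the subventricular zone and travel as chains along the rostral migratory stream. In the bulb they leave the chains, move outward and become granule or periglomerular interneurons. Doublecortin and the collapsin response mediator proteins act on the microtubules of the moving cell, polysialic acid on NCAM1 loosens contact between cells, and secreted cues such as prokineticin 2 steer entry into the bulb. In bulk RNA, fewer cells of a type and less RNA per cell cannot be told apart.

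Probes were 60 bases long. The first 30 bases are printed in lower case, 5′ to 3′, for the 3 genes with a call, for Dcx, for both Ncam1 probes whose calls differed, and for St8sia2, whose enzyme acts on NCAM1, since a value below is a value of these sequences and not of a whole transcript. Per the file headers, positions refer to mouse build mm9.
Igfbpl1, chr4:45822379-45822438, minus strand: cacacttatgagtgtcatgggtaaacaatg
Stmn2, chr3:8561545-8561604, plus strand: tcttcttgtatgtcattgtgagcaagctgt
Prokr2, chr2:132196949-132197008, minus strand: cattatgagaaaagatggttcgacaatgaa
Dcx, chrX:140290854-140290913, minus strand: ataaaaagaaaagcaaaacagagatgtgcg
Ncam1, chr9:49310320-49310379, minus strand: actttttactgagtgaaacatcaacaccac
Ncam1, further probe, chr9:49323381-49323440, minus strand: ctgtgtattagtacagtccgtacaccatgt
St8sia2, chr7:81084412-81084471, minus strand: taagatctcctgacccacagaaatgtgccc

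Which exon or untranslated region each probe lies in was not determined. The GC content of the 19 member probes ran from 35.0% to 55.0%, with a median of 40.0%. Of these probes 18 were well above background on all 15 arrays. The exception was a second Prokr2 probe (chr2:132166576-132166635), well above background on 0 arrays and not tested.

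A level here is the log2 signal of the gene's brightest kept probe minus the array's 75th percentile. A change is a difference of group means in log2 units, given with its standard error and the adjusted p of limma, a linear model fitted over all 27326 genes (Benjamini-Hochberg, threshold 0.05). All 5 active CRHR1 arrays were on slide 2 and all 5 knockout arrays on slide 1, so that these groups share no slide. Of the Cre GFP arrays, 1 to 3 were on slide 1 and the others on slide 2. The 75th percentile lay between 663 and 1172 intensity units, 58.7% to 66.9% of probes were well above background, and an array's mean correlation with the others of its group was 0.985 to 0.993. The number of arrays limits the precision.

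The targeted receptor was checked first. Crhr1 levels on arrays 1 to 5 were 3.62, 3.81, 3.57, 3.79 and 3.83 in active CRHR1 bulbs, 3.32, 3.13, 2.99, 3.14 and 3.23 in knockout bulbs, and 3.86, 3.79, 3.52, 3.52 and 3.48 in Cre GFP bulbs. Every knockout level lay below every Cre GFP level, and Crhr1 fell by 0.47 in the knockout (adjusted p = 0.0145 in limma). Active CRHR1 levels overlapped with those of Cre GFP, with a change of 0.09 ± 0.09 (adjusted p = 0.543). Whether the probe lies in the part that was deleted, or in the viral sequence, was not determined.

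Igfbpl1 and Stmn2 fell in active CRHR1 bulbs, both against Cre GFP and against the knockout. Both comparisons share the same 5 active CRHR1 arrays, all on slide 2, and are not independent. With 1 array left out, the calls against Cre GFP held in 5 of 15 fits for Igfbpl1 and 3 of 15 for Stmn2. Igfbpl1 codes for a protein related to the insulin-like growth factor binding proteins and is expressed by newborn neurons. Stmn2 codes for stathmin 2, which destabilises microtubules in growing neurites. Prokr2, the receptor for prokineticin 2, was 2.09-fold higher in active CRHR1 than in knockout bulbs, a call that held in 8 of these 15 fits. The other 7 genes, Dcx among them, passed in 0 of the 3 comparisons by their brightest probe.

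**Figure D1:**
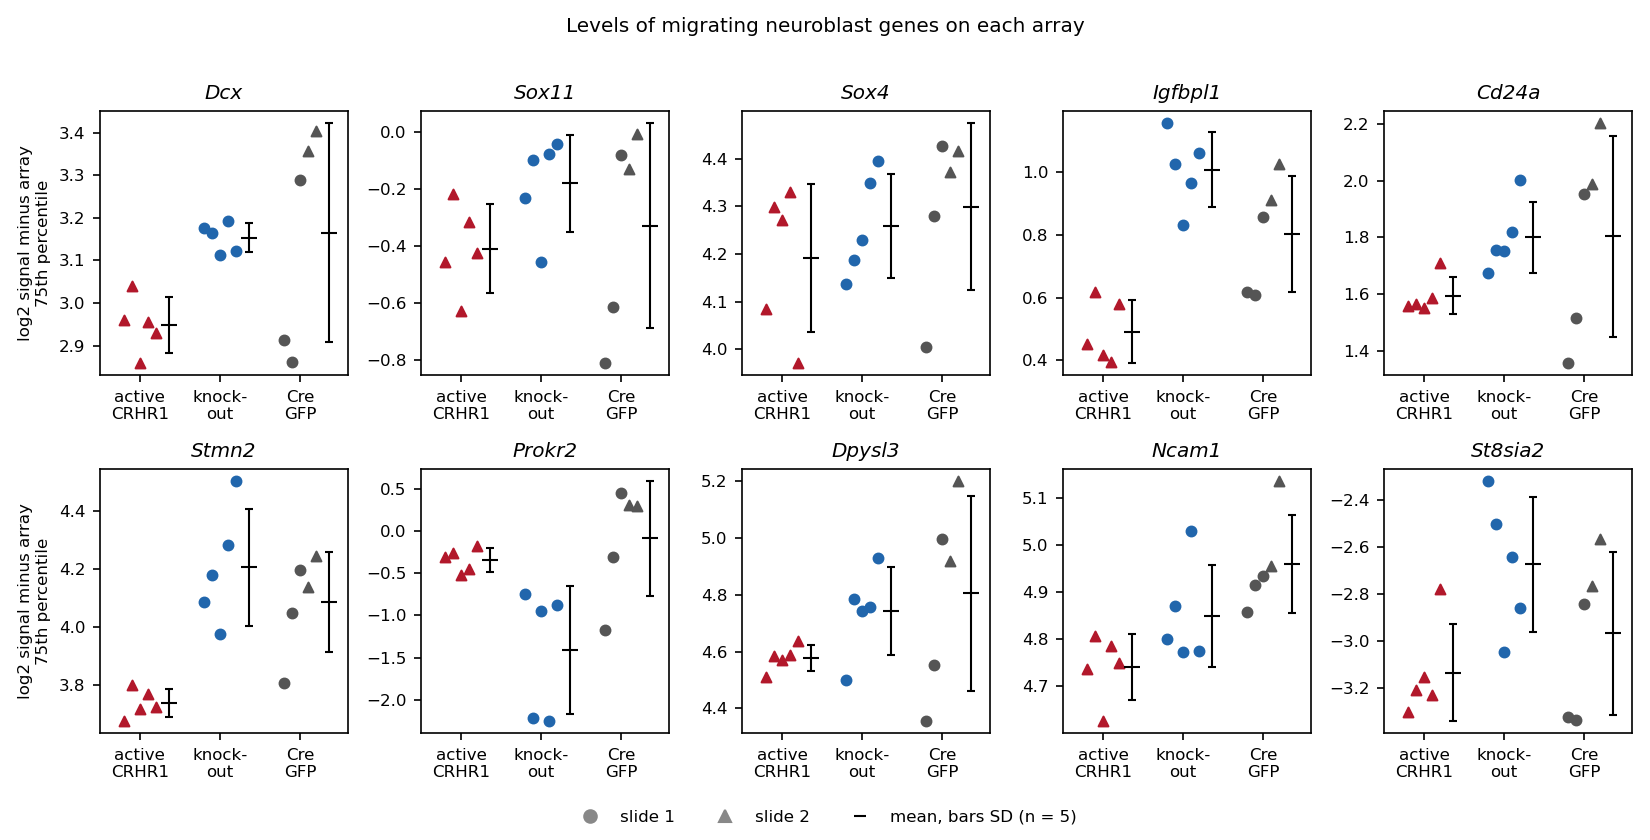
Level of each gene on each array (vertical axis, log2 signal minus the array's 75th percentile) for active CRHR1, knockout and Cre GFP bulbs. Circles are slide 1 and triangles slide 2, and bars show the mean and SD of 5 arrays. Stmn2 levels of active CRHR1 bulbs, 3.68 to 3.80, lie below all others, and Cre GFP arrays 1 and 2 are the lowest of their group for every gene shown.

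Active CRHR1 was set against Cre GFP to ask about higher receptor signalling within 1 strain. Of the 10 genes 0 rose and 2 fell, against a background of 3.91% of all genes tested higher and 4.59% lower past the threshold (8.5% in all). At an unadjusted p under 0.05 there were 4 of the 10, against 27.1% of all genes. All 10 means were lower in active CRHR1 bulbs, with a median change of -0.22, beside a median of -0.06 and 61.7% lower means over all genes tested. The groups' arrays did not overlap for Stmn2 and Ncam1, 2 of the 10 genes, against 10.4% of all genes.

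Stmn2 had levels of 3.68, 3.80, 3.72, 3.77 and 3.73 on active CRHR1 arrays 1 to 5, and of 3.81, 4.05, 4.20, 4.14 and 4.24 on the Cre GFP arrays. All active CRHR1 arrays lay below all Cre GFP arrays, the nearest being Cre GFP array 1. Stmn2 fell by 0.35 ± 0.10, which is 1.27-fold (adjusted p = 0.0445). Among slide 2 arrays alone the change was -0.45 (adjusted p = 0.0451), and with slide as a block it was also -0.45 but missed the threshold (adjusted p = 0.0715). The call held in 3 of the 15 fits that each left out 1 array, those without knockout array 3, knockout array 5 or Cre GFP array 1, and the adjusted p lay between 0.0135 and 0.117.

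Igfbpl1 had levels of 0.45, 0.62, 0.42, 0.39 and 0.58 on the active CRHR1 arrays, and of 0.62, 0.61, 0.86, 0.91 and 1.03 on the Cre GFP arrays. Active CRHR1 array 2 overlapped with Cre GFP arrays 1 and 2, and the other active CRHR1 arrays were lower than every Cre GFP array. Igfbpl1 fell by 0.31 ± 0.09, which is 1.24-fold (adjusted p = 0.0479). On slide 2 alone the change was -0.48 (adjusted p = 0.0626), and with slide as a block -0.48 (adjusted p = 0.0239). The call held in 5 of the 15 fits with 1 array left out, those without knockout array 3 or 5, Cre GFP array 1 or 2, or active CRHR1 array 2 (adjusted p 0.0247 to 0.126 over the 15).

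Both calls lay close to the threshold. They were lost with arrays centred on their median (Stmn2 -0.45, adjusted p = 0.0868, and Igfbpl1 -0.41, adjusted p = 0.0807) and in the authors' scaled values (adjusted p = 0.0825 for Stmn2 and 0.0767 for Igfbpl1). They were also lost with no filter on dim probes (adjusted p = 0.104 for Stmn2 and 0.112 for Igfbpl1).

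Ncam1 codes for the neural cell adhesion molecule, the main carrier of polysialic acid. Its brightest probe had levels of 4.74, 4.81, 4.63, 4.79 and 4.75 on the active CRHR1 arrays, and of 4.86, 4.92, 4.94, 4.96 and 5.14 on the Cre GFP arrays. The groups did not overlap, but the change of -0.22 ± 0.07 missed the threshold (adjusted p = 0.0632). Ncam1 had 2 further probes, which with the first span 40922 bases. In a fit over all kept probes the probe at chr9:49323381-49323440 fell by 0.37 (adjusted p = 0.0183), with levels of 1.96 to 2.18 on the active CRHR1 arrays and 2.24 to 2.64 on the Cre GFP arrays. The probe at chr9:49351182-49351241 had a change of -0.16 (adjusted p = 0.459). In active CRHR1 against Cre GFP the probes of Ncam1 thus gave different calls with the same sign.

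St8sia2, one of the enzymes that builds polysialic acid on NCAM1, was dim. Its levels were -3.30, -3.21, -3.15, -3.23 and -2.78 on the active CRHR1 arrays, and -3.32, -3.33, -2.84, -2.76 and -2.57 on the Cre GFP arrays. The groups overlapped, with Cre GFP arrays 1 and 2 below every active CRHR1 array. The change was -0.17 ± 0.17 (adjusted p = 0.550).

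Dcx codes for doublecortin, a microtubule-associated protein of migrating neurons. It had levels of 2.96, 3.04, 2.86, 2.96 and 2.93 on the active CRHR1 arrays, and of 2.91, 2.86, 3.29, 3.36 and 3.40 on the Cre GFP arrays. Cre GFP arrays 1 and 2 lay within the active CRHR1 range and the other Cre GFP arrays above it. The change of -0.22 ± 0.10 missed the threshold (adjusted p = 0.175), with a 95% confidence interval from -0.43 to -0.01. The other 2 Dcx probes gave -0.19 and -0.15 (adjusted p = 0.281 and 0.614 over probes). On slide 2 alone the change was -0.43 (adjusted p = 0.0521), and with slide as a block the same change passed (adjusted p = 0.0328).

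Dpysl3 codes for a collapsin response mediator protein, another partner of the cytoskeleton. It had levels of 4.51, 4.59, 4.57, 4.59 and 4.64 on the active CRHR1 arrays, and of 4.36, 4.55, 5.00, 4.92 and 5.20 on the Cre GFP arrays. The Cre GFP arrays spread on both sides of the active CRHR1 arrays, and the change was -0.23 ± 0.13 (adjusted p = 0.290). Cd24a, a surface glycoprotein anchored to the membrane by a lipid, had 1.56, 1.57, 1.55, 1.59 and 1.71 on the active CRHR1 arrays, and 1.36, 1.51, 1.95, 1.99 and 2.20 on the Cre GFP arrays. Its groups overlapped in the same way, and its change was -0.21 ± 0.13 (adjusted p = 0.331).

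Sox11 and Sox4 code for related transcription factors of the SOXC group that switch on genes of young neurons. Sox11 had levels of -0.46, -0.22, -0.63, -0.31 and -0.42 on the active CRHR1 arrays, and of -0.81, -0.61, -0.08, -0.13 and -0.01 on the Cre GFP arrays. Sox4 had 4.09, 4.30, 4.27, 4.33 and 3.97 on the active CRHR1 arrays, and 4.00, 4.28, 4.43, 4.37 and 4.42 on the Cre GFP arrays. The groups overlapped for both genes, and the changes were -0.08 ± 0.15 for Sox11 (adjusted p = 0.764) and -0.11 ± 0.10 for Sox4 (adjusted p = 0.484). The second Sox11 probe gave -0.23, and the other 2 Sox4 probes gave -0.10 and -0.16 (adjusted p = 0.286, 0.470 and 0.302 over probes).

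Prokr2 had levels of -0.31, -0.26, -0.53, -0.45 and -0.18 on the active CRHR1 arrays, and of -1.18, -0.31, 0.45, 0.30 and 0.30 on the Cre GFP arrays. Cre GFP array 1 lay below all active CRHR1 arrays, array 2 among them and the other 3 above. The change was -0.26 ± 0.35 (adjusted p = 0.663). On slide 2 alone, with 2 Cre GFP arrays, it was -0.65 and passed (adjusted p = 0.0495), and with slide as a block it was -0.65 and did not (adjusted p = 0.391).

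Cre GFP arrays 1 and 2 held the lowest pair of values in their group for 10 of the 10 genes, which was so for 14.5% of all genes tested. Without both arrays, a setting chosen after seeing the data, 5 of the 10 genes fell in active CRHR1 against Cre GFP. Past the threshold were then 4.24% of all genes higher and 5.04% lower (9.28% in all). The omitted arrays are the lowest of their group for every member, so their omission lowers every change of a member against Cre GFP. It also alters the error of the fit, which is taken from all groups. Nothing is read from the count or from these calls. The 5 genes were Dcx by 0.40, Cd24a by 0.45, Igfbpl1 by 0.44, Dpysl3 by 0.46 and Stmn2 by 0.45. In the fit of all 15 arrays Dcx, Cd24a and Dpysl3 did not pass (adjusted p = 0.175, 0.331 and 0.290 in limma). Cre GFP arrays 1 and 2 lie on slide 1, as does Cre GFP array 3, which was not low. Their mean level over 11 microglia and macrophage genes was 2.70 and 2.82, against 2.36, 2.44 and 2.53 on Cre GFP arrays 3 to 5, and over 19 granule cell and mature neuron genes it was 4.56 and 4.73, against 4.60, 4.55 and 4.69. The part of either in the low levels of the 10 genes was not tested.

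**Figure D2:**
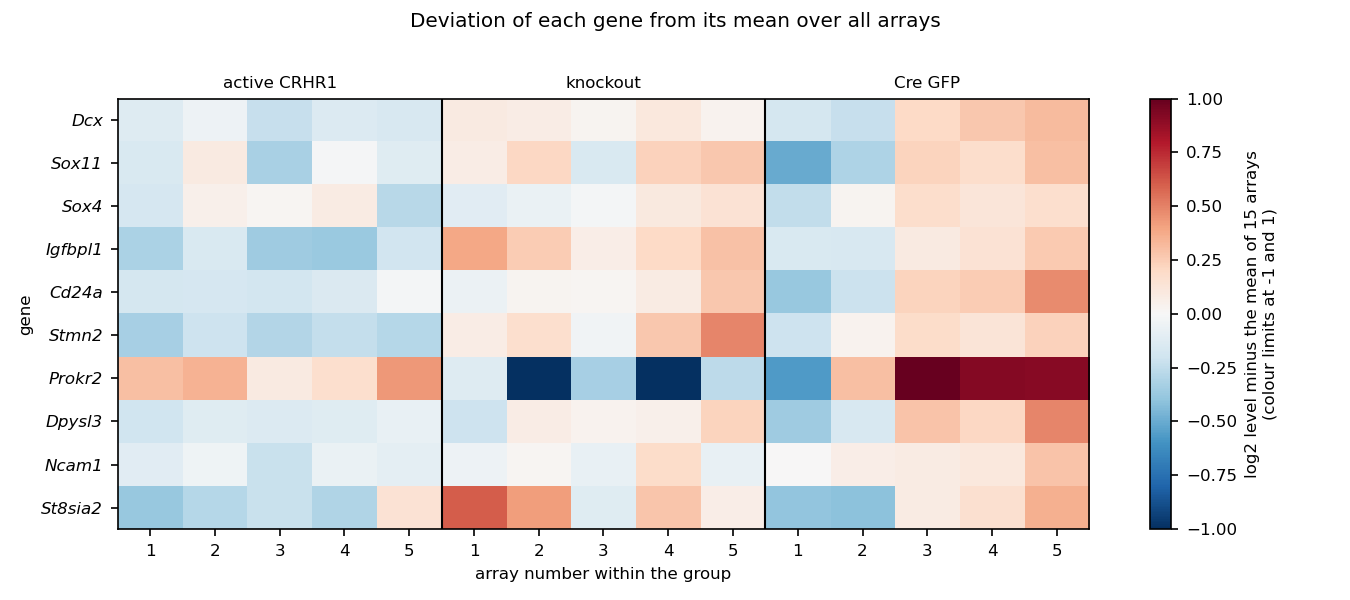
Difference of each gene (rows) on each array (columns, by group) from its mean over the 15 arrays, in log2 units, with colours limited at -1 and 1. Blue is below and red above the gene's mean. Igfbpl1, Stmn2, Dcx, Cd24a, Dpysl3 and Ncam1 are blue on all active CRHR1 arrays. Cre GFP arrays 1 and 2 differ from arrays 3 to 5 of their group.

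Genes of other cell types changed in the same bulbs. In active CRHR1 against Cre GFP, 3.91% of all genes tested were higher and 4.59% lower past the threshold. Of 11 microglia and macrophage genes, 8 rose and 0 fell in active CRHR1 against Cre GFP, among them Aif1, a calcium-binding protein of these cells, by 1.89 ± 0.24 and C1qa, a complement gene, by 1.56 ± 0.19. Their summed signal, in multiples of the array's 75th percentile, was 125.31 to 176.14 in active CRHR1 and 85.13 to 111.24 in Cre GFP bulbs. Of 11 lymphocyte genes 7 rose and 0 fell, with sums of 3.58 to 7.01 in active CRHR1 and 3.45 to 4.21 in Cre GFP bulbs. Of the lymphocyte list, Cd8a and Ms4a1 were well above background on at most 2 and 3 of the 15 arrays and were not tested, and Cd3g was so on 4 arrays of the active CRHR1 group and 1 of the Cre GFP group. Of the 8 lymphocyte genes that were well above background on at least 4 arrays of both groups, 5 rose and 0 fell, with sums of 3.53 to 6.80 in active CRHR1 and 3.43 to 4.15 in Cre GFP bulbs. Of 19 granule cell and mature neuron genes 0 rose and 7 fell, with sums of 718.76 to 838.24 in active CRHR1 and 882.71 to 1009.11 in Cre GFP bulbs. The 10 genes listed for neuroblasts summed to 92.93 to 100.11 in active CRHR1 and 92.25 to 131.84 in Cre GFP bulbs. Ncam1, Dpysl3, Sox4 and Stmn2 were the brightest of them and weigh most in this sum. The part of other cell types in the falls of Igfbpl1 and Stmn2 was not tested.

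Active CRHR1 against knockout sets bulbs given a constitutively active receptor against CRHR1-/- bulbs, across both strains and with no shared slide. Receptor signalling was not measured. Of the 10 genes 1 rose and 2 fell, against 9.39% of all genes higher and 16.2% lower past the threshold (25.6% in all). At an unadjusted p under 0.05 there were 4, against 41.4% of all genes. Means were lower for 9 genes, with a median change of -0.21, beside -0.07 and 59.3% lower means over all genes. The groups did not overlap for 4 genes, Dcx, Igfbpl1, Stmn2 and Prokr2, against 18.6% of all genes.

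Igfbpl1 had 1.16, 1.03, 0.83, 0.97 and 1.06 on the knockout arrays, above the 0.39 to 0.62 of the active CRHR1 arrays. It fell by 0.52 ± 0.09 in active CRHR1 bulbs, which is 1.43-fold (adjusted p = 0.00209). Stmn2 had 4.09, 4.18, 3.97, 4.28 and 4.50 on the knockout arrays, above the 3.68 to 3.80 of the active CRHR1 arrays. It fell by 0.47 ± 0.10, which is 1.38-fold (adjusted p = 0.00604). Both calls held in 15 of 15 fits with 1 array left out, with adjusted p up to 0.00697 for Igfbpl1 and 0.0183 for Stmn2. With slide as a block, which reaches this comparison only through the Cre GFP arrays of both slides, the changes were -0.79 for Igfbpl1 (adjusted p = 0.0150) and -0.64 for Stmn2 (adjusted p = 0.0650).

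Prokr2 had levels of -0.53 to -0.18 on the active CRHR1 arrays, and of -0.74, -2.21, -0.95, -2.25 and -0.88 on the knockout arrays. The groups did not overlap, and knockout arrays 2 and 4 lay far below the other 3. Prokr2 was higher in active CRHR1 bulbs by 1.06 ± 0.35, or 2.09-fold (adjusted p = 0.0397). The call was lost without knockout array 2 (adjusted p = 0.0796) or 4 (0.0977) and without any 1 active CRHR1 array (0.0548 to 0.0815). Without knockout arrays 2 and 4 together, chosen after seeing the data, the change was 0.51 (adjusted p = 0.234), and with slide as a block it was 0.41 (adjusted p = 0.676).

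Dcx had 3.18, 3.16, 3.11, 3.19 and 3.12 on the knockout arrays, all above the 2.86 to 3.04 of the active CRHR1 arrays. The change of -0.20 ± 0.10 missed the threshold (adjusted p = 0.131). The fit takes its error from all 3 groups, and the SD of Dcx was 0.07 in the active CRHR1, 0.03 in the knockout and 0.26 in the Cre GFP group. In a fit of the 2 groups alone the same change had an adjusted p of 0.0279. The further Dcx probes gave -0.06 and -0.09 (adjusted p = 0.694 and 0.706 over probes). St8sia2 had -2.32, -2.50, -3.05, -2.64 and -2.86 on the knockout arrays, which overlapped with active CRHR1 arrays. Its change of -0.46 ± 0.17 missed the threshold (adjusted p = 0.0610), and passed in the fit of the 2 groups alone (adjusted p = 0.0499).

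For the remaining 5 genes knockout and active CRHR1 arrays overlapped. Their changes were -0.23 ± 0.15 for Sox11, -0.21 ± 0.13 for Cd24a, -0.17 ± 0.13 for Dpysl3, -0.11 ± 0.07 for Ncam1 and -0.07 ± 0.10 for Sox4. Adjusted p ran from 0.242 to 0.610 in limma. In the fit over all kept probes, the further Ncam1 probes gave -0.22 and 0.03 (adjusted p = 0.0725 and 0.883), with different signs. The further Sox4 probes gave -0.20 and -0.07 (0.0914 and 0.588). The second probes of Sox11 and Dpysl3 gave -0.14 and -0.03 (0.454 and 0.870).

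**Figure D3:**
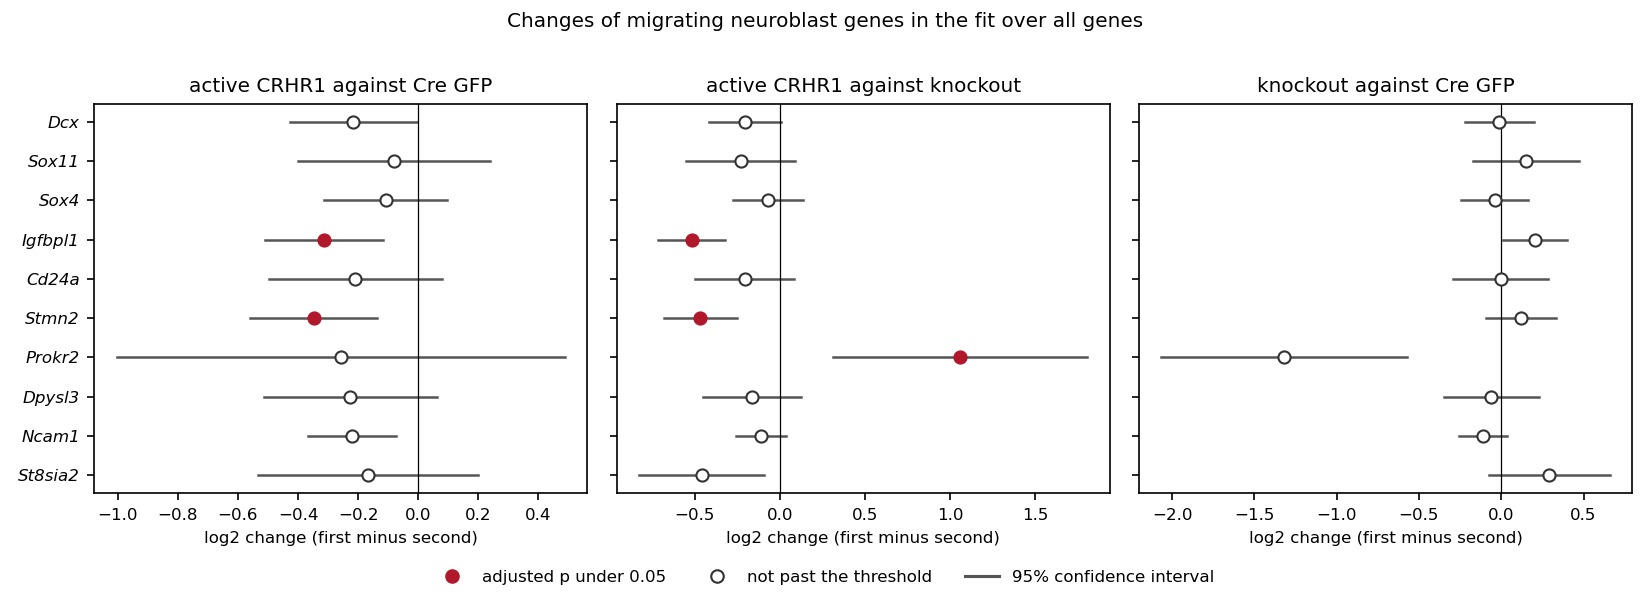
Log2 change of each gene in the 3 comparisons (horizontal axes, first group minus second), with 95% confidence intervals. Filled points have an adjusted p under 0.05. Igfbpl1 and Stmn2 are filled on the lower side in both active CRHR1 panels, Prokr2 is filled at 1.06 against the knockout, and 0 points are filled for knockout against Cre GFP.

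Knockout was set against Cre GFP to ask about lower receptor signalling, across both strains. Of the 10 genes 0 passed the adjusted threshold of limma, against 1.97% of all genes higher and 1.39% lower past it (3.36% in all). At an unadjusted p under 0.05 there were 2, Prokr2 and Igfbpl1, against 19.8% of all genes. Means were higher for 4 genes and lower for 6, with a median of -0.01, beside 0.00479 over all genes. The groups overlapped for 10 of 10 genes, and did not for 5.57% of all genes.

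Prokr2 was nearest to the threshold. Cre GFP array 1, at -1.18, lay among the knockout arrays and the other Cre GFP arrays above all of them. The change of -1.32 ± 0.35 had an adjusted p of 0.0543. It passed without knockout array 1 (adjusted p = 0.0435) or Cre GFP array 1 (0.0209), and with several unnamed tiling probes of a region reduced to 1 (0.0486). Among slide 1 arrays alone it was -1.06 (adjusted p = 0.449). Prok2, which codes for the ligand prokineticin 2, had a change of -0.10 ± 0.11 (adjusted p = 0.646), and the probe of the related receptor gene Prokr1 was well above background on 0 arrays.

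The other 9 genes had changes from -0.11 ± 0.07 for Ncam1 to 0.29 ± 0.17 for St8sia2. Igfbpl1 had a change of 0.20 ± 0.09 (adjusted p = 0.231) and Stmn2 of 0.12 ± 0.10 (adjusted p = 0.539). For Dcx it was -0.01 ± 0.10, with a 95% confidence interval from -0.22 to 0.20. Both comparisons with Cre GFP share its 5 arrays.

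**Figure D4:**
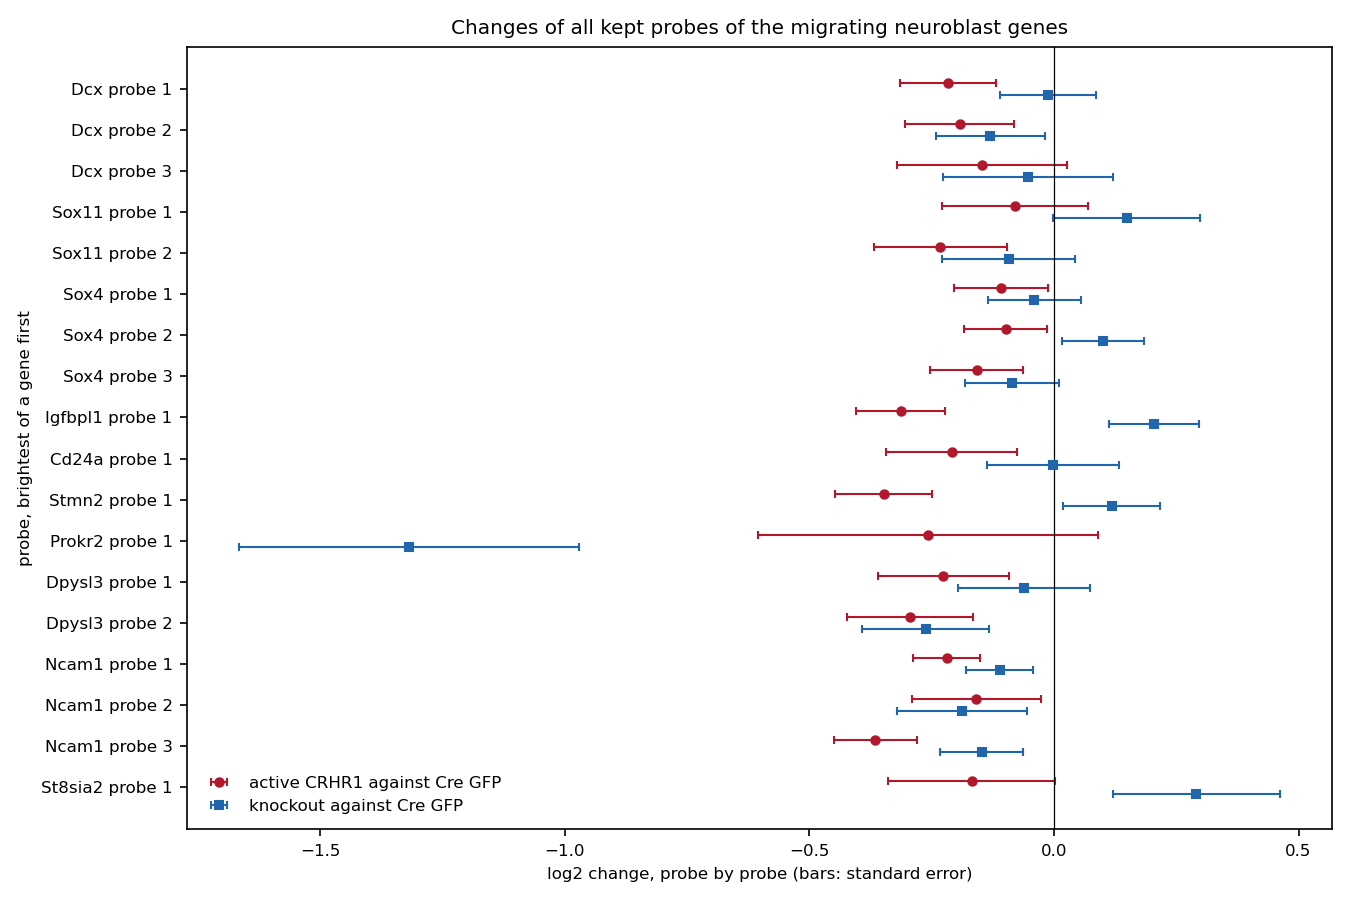
Log2 change of each of the 18 kept probes (rows, brightest of a gene first) in active CRHR1 against Cre GFP and knockout against Cre GFP, with standard errors. All 18 probes lie below 0 for active CRHR1 against Cre GFP, and the Prokr2 probe lies at -1.32 for knockout against Cre GFP.

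By the brightest probe of each gene, the order of group means was active CRHR1, Cre GFP, knockout from low to high for Igfbpl1, Stmn2, Sox11 and St8sia2. For Prokr2 it was knockout, active CRHR1, Cre GFP. For the other 5 genes it was active CRHR1, knockout, Cre GFP. In the fit of all 15 arrays, neighbours in these orders differed past the threshold for Igfbpl1 and Stmn2, between active CRHR1 and Cre GFP, and for Prokr2, between active CRHR1 and knockout, and for 0 of the other genes. With the knockout and Cre GFP means of Dcx at 3.15 ± 0.03 and 3.17 ± 0.26 (SD, n = 5 each), the place of these groups in its order is within their spread.

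With the 3 groups pooled, most of the genes deviated from their group means together. Over the 15 arrays, deviations from the group means had a positive Pearson correlation in 44 of 45 pairs, with a median of 0.59. The highest was 0.97, between Cd24a and Dpysl3, and the lowest -0.11, between Prokr2 and Ncam1. The genes of an array share its scaling, and the arrays include Cre GFP arrays 1 and 2. On Cre GFP arrays 1 to 5, 0, 0, 9, 9 and 10 of the genes lay above their group mean. The knockout arrays had 4, 6, 2, 8 and 7, and the active CRHR1 arrays 2, 8, 1, 6 and 6. Correlations were not computed group by group, nor for pairs of all genes. Dcx correlated with Sox11 at 0.88, Cd24a at 0.84, Igfbpl1 at 0.81, Dpysl3 at 0.79, St8sia2 at 0.695, Ncam1 at 0.59, Stmn2 at 0.52, Sox4 at 0.51 and Prokr2 at 0.49. Among all genes tested, these correlations held ranks 14, 35, 78, 112, 436, 1138, 1818, 1938 and 2200, in the same order. Of all genes with a symbol, those most like Dcx over the 15 arrays were Asxl3 (0.96), the protocadherin gene Pcdh8 (0.94), Dhx29 (0.92), Txndc16 (0.92) and Usp31 (0.92).

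Genes related to the 10 by role were followed as lists. Of all genes tested, 3.91% were higher and 4.59% lower past the threshold in active CRHR1 against Cre GFP. Against the knockout these shares were 9.39% and 16.2%, and in knockout against Cre GFP 1.97% and 1.39%. Lower means made up 61.7%, 59.3% and 49% of all genes in these comparisons, with medians of -0.06, -0.07 and 0.0048. Of 22 genes of the neuroblast cytoskeleton 0 rose and 2 fell in active CRHR1 against Cre GFP, with a median of -0.21. They were Gap43, a growth cone protein, by 0.34 ± 0.09 (adjusted p = 0.0321), and Cdk5r1, the activator of the migration kinase CDK5, by 0.29 ± 0.08 (0.0387). Tubb3, the neuronal tubulin, had a change of -0.29 ± 0.09 (adjusted p = 0.0652), and Dclk1, the nearest relative of Dcx, of -0.29 ± 0.13 (0.155). Against the knockout 0 rose and 6 fell (median -0.14), with Marcksl1 by 0.78 ± 0.12, Stmn1 by 0.48 ± 0.10, Gap43 by 0.47 ± 0.09 and Stmn3 by 0.30 ± 0.09. In knockout against Cre GFP 0 of the 22 passed in limma, with 12 means lower and 10 higher.

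Of 15 genes of polysialic acid and adhesion, 0 passed in active CRHR1 against Cre GFP in limma, although 14 means were lower (median -0.11). Over all genes 61.7% of means were lower, with a median of -0.06. St8sia4, the second enzyme that builds polysialic acid, had a change of -0.10 ± 0.09 (adjusted p = 0.510). Against the knockout 0 rose and 3 fell, the adhesion genes Cntn2 by 0.44 ± 0.12, Chl1 by 0.35 ± 0.10 and Itga6 by 0.33 ± 0.07. Of all genes tested 16.2% were lower past the threshold there. In knockout against Cre GFP Itga6, an integrin subunit, rose by 0.31 ± 0.07 (adjusted p = 0.0218), and 0 fell.

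Of 25 migration cues and receptors, 0 rose and 6 fell in active CRHR1 against Cre GFP (median -0.10). Slit1, which codes for a repellent of migrating neurons, fell by 0.39 ± 0.10 (adjusted p = 0.0260) and the ephrin receptor gene Epha4 by 0.36 ± 0.07 (0.00719). In the reelin pathway, which detaches neuroblasts from their chains, the receptor gene Lrp8 fell by 0.29 ± 0.07 (0.0300) and the adaptor gene Dab1 by 0.25 ± 0.06 (0.0301). Against the knockout 2 rose and 7 fell, among them Epha4 by 0.44 ± 0.07, Efnb3 by 0.41 ± 0.08, Efnb2 by 0.40 ± 0.08 and Lrp8 by 0.34 ± 0.07. In knockout against Cre GFP Nrg1, a ligand of ERBB receptors, fell by 0.46 ± 0.08 (0.00882), and Efnb2, an ephrin ligand, rose by 0.34 ± 0.08 (0.0305).

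Of 22 transcription factors of neuroblasts and their descendants, 0 rose and 5 fell in active CRHR1 against Cre GFP (median -0.19). Tbr1, a factor of glutamatergic neurons, fell by 0.49 ± 0.10 (adjusted p = 0.00618), Dlx2, which specifies bulb interneurons, by 0.31 ± 0.07 (0.0177), Meis2 by 0.30 ± 0.08 (0.0253) and Etv1 by 0.26 ± 0.07 (0.0413). Meis2 also stands in the granule cell list. Against the knockout 0 rose and 5 fell, among them Sp9, an interneuron factor, by 0.38 ± 0.07 and Bcl11b by 0.29 ± 0.08. Etv1 fell by 0.34 ± 0.07 in knockout against Cre GFP (0.0203), and 0 of the list rose.

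Of 11 genes of dividing progenitors tested, 6 rose and 0 fell in active CRHR1 against Cre GFP, among them the proliferation antigen gene Mki67 by 1.49 ± 0.22 (adjusted p = 0.00115), Top2a by 2.26 ± 0.28 (its probe passed the background flag on 5 arrays of active CRHR1 and 3 of Cre GFP bulbs), and the cyclin gene Ccnb1 by 1.24 ± 0.24. Top2a and Bub1 were well above background on at least 4 arrays of the active CRHR1 but not of the Cre GFP group, and without them 4 of 9 rose and 0 fell. Mki67, Top2a, Ccnb1 and Bub1 are used by every dividing cell and do not tell progenitors from others. Nes, the intermediate filament of neural progenitors, and Ccnd2, a cyclin of neural progenitors, rose in the knockout against Cre GFP, by 0.49 ± 0.09 (0.0110) and 0.56 ± 0.07 (0.00143). In that comparison 3 of the 11 rose and 0 fell, or 2 of 9 without Top2a and Bub1. In active CRHR1 against knockout 4 rose and 3 fell, with 8 of 11 means higher, or 3 rose and 3 fell of 10 without Bub1. Nes fell by 0.65 ± 0.09 and Ccnd2 by 0.61 ± 0.07 against the knockout.

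Promoter sequence was given for 5 of the 10 genes, as 6 windows of 250 bases before a start site (RefSeq, build GRCm38.p6). Both strands were searched for the cAMP response element TGACGTCA, its half-site TGACG, and the SOX motifs ACAAT and AACAAT, each shorter motif lying within the longer one of its kind. They were found in 0 of the 6 windows, and in 1.5%, 17.8%, 27.7% and 9.4% of all 32851 windows of that length. This says only that these letters are not in these windows.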

How the data were processed

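Spot intensity was read from the scanner files, made with Agilent Feature Extraction 10.7.3.1 per the file headers. The deposited series values are a linear signal made by the authors, each spot's processed intensity divided by the median of the array's non-control spots, which a comparison with the scanner values showed. Flag columns were used as deposited. Of 62976 spots an array, 59305 were not controls and 0 were saturated. After removal of spots flagged as outliers, the processed intensity was put on the log2 scale, the 75th percentile of the array was subtracted, and repeated spots were averaged over a probe. Probes well above background on at least 4 of 5 arrays of a group were kept (33968), and the one with the highest mean stood for its gene. RefSeq names were matched through accessions for 26827 probes. Of the 27326 genes tested 16782 had a symbol, and unnamed tiling probes counted 1 by 1.

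The 3 groups were fitted together with limma 3.58.1 (lmFit, eBayes) in R 4.3.3, with Benjamini-Hochberg adjustment over all genes. The fit was also run on simulated data with independent noise for each gene and no slide effect. That run cannot speak to slide effects or to variation shared between genes. The labels do not say that arrays with the same number belong together, and 3 of 15 same-numbered pairs deviated together at a correlation over 0.1 (-0.22 to 0.41). Alternatives were slide as a fixed or random block and within a slide, other scalings, background corrections, filters and probe choices, array weights, an intensity trend, the 2 groups alone, a block for the replicate number, and omission of each array. All 10 members, in each other list the called genes of smallest p (up to 4), the 5 genes most like Dcx and Crhr1 were to be named. The members and lists were chosen with earlier results of these data known. Lists are described by counts and medians, with no test. Of the 15 lists besides the members, those of mitral and tufted, dopaminergic and endothelial cells, astrocytes, oligodendrocytes, neutrophils and ensheathing glia are given in the closing section. The results of some further genes of the lists are not reported here. Python 3.11.15 with matplotlib 3.10.9 and pandas 2.3.3, and the R package data.table (version 1.17.8), served for figures and tables.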

Additional observations from a re-analysis of the deposited data

Results flagged for a closer look

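Active CRHR1 array 5 stood apart from the other 4 arrays of its group for 2 genes, in that its gap to the nearest array was large for the range of the group (Dixon's test at the 95% level). It had a Cd24a level of 1.71, against 1.55 to 1.59 on the other 4, and a St8sia2 level of -2.78, against -3.30 to -3.15. Of 30 gene and group combinations examined 2 were singled out in this way, and chance does so for about 1 in 20. Without this array, St8sia2 passed in active CRHR1 against knockout (adjusted p = 0.0495 in limma).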

How the results depend on the processing

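In active CRHR1 against knockout Igfbpl1 passed in 16 of 16 other settings (adjusted p up to 0.0184) and Stmn2 in 15 of 16, all but the slide block. In active CRHR1 against Cre GFP Stmn2 passed in 12 of 17 settings and Igfbpl1 in 8 of 17, always lower. Prokr2 passed in 10 of 16 for active CRHR1 against knockout and in 8 of 17 for knockout against Cre GFP, where its change ran from -1.76 to -0.77. Members past the threshold in active CRHR1 against Cre GFP numbered 2 as reported. They numbered 0 with arrays centred on their median, in the authors' series values, with no filter on dim probes or without knockout arrays 2 and 4, 1 with quantile normalization, slide as a random block, the replicate block or the 2 groups alone, 5 without Cre GFP arrays 1 and 2, and 6 with array weights. With any 1 array left out they ran from 0 to 3, being 0 without active CRHR1 array 1, 3, 4 or 5, knockout array 1, 2 or 4, or Cre GFP array 3, 4 or 5, and 1 without array 2 of either group compared. Of all genes, 5893 passed with array weights in that comparison, against 2322 as reported. Against the knockout the members past the threshold were 3 as reported and 2 to 4 with 1 array left out. They were 5 with the 2 groups alone, where 6128 of all genes passed, and 5 without Cre GFP arrays 1 and 2, where 7345 did. As reported 7001 of all genes passed there. For knockout against Cre GFP the members past the threshold were 0 as reported and 1, Prokr2, with array weights, an intensity trend, normexp, quantile normalization, a random slide block, collapsed tiling probes, a filter on all 15 arrays, without Cre GFP arrays 1 and 2, or with 1 array left out (0 to 1).

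Genes past the threshold in knockout against Cre GFP numbered 917 (538 higher, 379 lower) as reported, 406 with arrays centred on their median (133 higher, 273 lower), 458 in the authors' values (152 higher, 306 lower), 390 with no filter, 494 with 2 groups, 1400 with quantile normalization, 389 with the slide block, 114 within slide 1, 559 with the replicate block, 1765 with array weights, 243 without knockout arrays 2 and 4, and 431 to 953 with 1 array left out (lowest without Cre GFP array 4). In active CRHR1 against Cre GFP they were 2322 (1068 higher, 1254 lower) as reported, 1272 with median centring (713 higher, 559 lower), 1306 in the authors' values, 1220 with no filter, 1010 with the slide block, 329 within slide 2, 1537 with the replicate block, 5893 with array weights, and 1188 (without active CRHR1 array 1) to 3601 (without Cre GFP array 1) with 1 array left out. Against the knockout they were 7001 (2565 higher, 4436 lower) as reported, 4234 with median centring (2051 higher, 2183 lower), 4394 in the authors' values (2096 higher, 2298 lower), 679 with the slide block, 10628 with the random block, 2591 without knockout arrays 2 and 4, and 4141 to 7899 with 1 array left out (lowest without knockout array 4). Median centring shifted the median gene by -0.06, -0.10 and -0.04 in knockout against Cre GFP, active CRHR1 against Cre GFP and active CRHR1 against knockout.

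Signs turned only where a change had not passed. For knockout against Cre GFP, the slide block and slide 1 alone gave 0.132 for Dcx, 0.023 for Sox4, 0.193 for Cd24a and 0.109 for Dpysl3, leaving out Cre GFP arrays 1 and 2 gave -0.108 for Sox11, and leaving out knockout arrays 2 and 4 gave 0.007 for Cd24a. Quantile normalization gave 0.049 for Sox4 and 0.02 for Ncam1 in active CRHR1 against knockout. With 1 array left out the changes ran from -0.087 to 0.048 for Dcx, from -0.114 to 0.098 for Cd24a and from -0.173 to 0.038 for Dpysl3 in knockout against Cre GFP, and from -0.201 to 0 for Sox11 in active CRHR1 against Cre GFP. The causes were not tested. The authors' table gave no value for Cd24a. Dim probes such as that of St8sia2 limit what 5 arrays a group can show. The settings without Cre GFP arrays 1 and 2, without knockout arrays 2 and 4, and with collapsed tiling probes were chosen after seeing the data.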

Other observations

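The remaining cell type lists are read as counts past the threshold, beside these shares of all genes tested. In active CRHR1 against Cre GFP 3.91% were higher and 4.59% lower. Against the knockout the shares were 9.39% and 16.2%, and in knockout against Cre GFP 1.97% and 1.39%. Of 8 oligodendrocyte genes 0 rose and 3 fell in active CRHR1 against Cre GFP (among them the myelin gene Mobp by 0.82 ± 0.22 and the transcription factor gene Olig2 by 0.32 ± 0.09), 0 rose and 6 fell against the knockout, and 1 rose in knockout against Cre GFP. Of 8 ensheathing glia genes 0 rose and 7 fell in active CRHR1 against knockout, with Ngfr by 0.99 ± 0.11, and 3 rose in knockout against Cre GFP. Of 8 astrocyte genes Gfap rose by 0.87 ± 0.21 in active CRHR1 against Cre GFP and 0 fell, while 1 rose and 2 fell against the knockout and 2 rose in knockout against Cre GFP.

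Of 9 mitral and tufted cell genes 0 rose and 2 fell in active CRHR1 against Cre GFP, Tbr1 by 0.49 ± 0.10 and Lhx2 by 0.40 ± 0.07, and 3 fell against the knockout. Of 4 dopaminergic genes Ddc fell by 0.32 ± 0.08 against Cre GFP and by 0.47 ± 0.08 against the knockout. Of 6 endothelial genes 0 passed in limma in active CRHR1 against Cre GFP, 1 fell against the knockout and 1, Slco1c1, rose by 0.37 ± 0.07 in knockout against Cre GFP. Of 4 neutrophil genes 0 passed in limma in any comparison. Of 11 microglia and macrophage genes 5 rose and 1 fell, and of 11 lymphocyte genes 2 rose, in active CRHR1 against knockout. In knockout against Cre GFP 0 microglia genes passed, 1 lymphocyte gene rose (Cd79b by 0.95 ± 0.19) and 1 of 19 granule cell and mature neuron genes fell (Snap25 by 0.98 ± 0.19), while of these 19 genes 1 rose and 8 fell in active CRHR1 against knockout.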
